A study of Mus musculus with 18 samples.

Results

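*Igsf9*, *Foxr2*, *Liph*, *Allc* and *Gm13889* are 5 of 24346 genes measured by RNA-seq in all 18 libraries of a study of *Kdm6a* in female mouse embryonic stem (ES) cells. They were chosen by their levels at D0, which, before differentiation, lay far apart in *Tsix*-stop knockout (KO) and wild-type (wt) cells, with the CRISPR control often close to KO. No numeric threshold was part of this choice. Those D0 levels are therefore given as a description without a test, while D15 of the *Tsix*-stop line and both days of the E8 line, which the choice did not use, were tested.

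*Tsix*-stop is a female ES line from a strain-129 × *cast* cross in which every group, controls included, carries a transcriptional stop in *Tsix* on the strain-129 X chromosome, so that the strain-129 X is the one silenced on differentiation. Its 10 libraries comprised 2 of wt cells, 2 of *Kdm6a* KO cells (deletion of exons 2 to 4) and 1 of a CRISPR control (CRISPR-treated, unedited) at each of D0 and D15 of undirected differentiation through embryoid bodies. E8 is a female BL6 × *cast* line with largely random X inactivation, and its 8 libraries comprised 2 of wt and 2 of KO cells (deletion of the *Kdm6a* promoter, 1 clone) at each of D7 and D15. The study made 2 homozygous *Tsix*-stop KO clones, but the labels do not say which clone, or which isolate of wt cells, a library came from, and the p-values below measure only the spread between these libraries, which may be technical. The CRISPR control is 1 clone with 1 library a day and no replicate check, and the name of its deposited file reads as KO where its label reads CRISPR control. The label was followed. The 2 E8 KO libraries of a day share that 1 clone, and the study's methods give other days for E8 than the labels, which were followed here. ES cells were grown on mouse embryonic fibroblast feeders, which were depleted before use.

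KDM6A removes methyl groups from lysine 27 of histone H3, a mark laid down by Polycomb complexes at silent developmental genes. ES cells carry this mark together with active marks at many promoters, and loss of the demethylase can leave such genes less active or delay their activation. The 5 genes have unrelated products. IGSF9 is an immunoglobulin-domain adhesion protein known from dendrites and synapses. FOXR2 is an X-linked forkhead factor that can bind MYC and is known from tumours. LIPH is a phospholipase that makes lysophosphatidic acid. ALLC carries the name of allantoicase, an enzyme of purine breakdown, and its activity in these cells is not known. *Gm13889* is a predicted protein-coding gene without an established role.

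On GRCm38 (the build of mm10), with GENCODE vM21 positions, *Igsf9* lies at chr1:172481788-172498878 on the plus strand, *Foxr2* at chrX:153118786-153132861 on the plus strand, *Liph* at chr16:21953817-21995663 on the minus strand, *Allc* at chr12:28553755-28582523 on the minus strand and *Gm13889* at chr2:93955810-93957201 on the minus strand. Of these, only *Gm13889* overlaps another annotated gene, *Gm27027* on the same strand, and reads from the shared bases cannot be assigned between them.

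The sequences before the start sites of the 4 genes that were lower in KO cells at D0 are shown because these genes were low there together. RefSeq gave a promoter for 4 of the 5 genes, and *Gm13889* was without an entry. Each line runs 5′ to 3′ on the strand of its gene and holds the longest run within the 250 bases before the RefSeq start that lies in no GENCODE exon of that gene (GRCm38.p6). Capitals mark matches, on either strand, to the TATA box (TATAAA), the CAAT box (CCAAT), the GC box (GGGCGG, which reads CCGCCC on the other strand) or the E-box (CACGTG).
*Igsf9*, chr1:172481963-172482198, plus strand: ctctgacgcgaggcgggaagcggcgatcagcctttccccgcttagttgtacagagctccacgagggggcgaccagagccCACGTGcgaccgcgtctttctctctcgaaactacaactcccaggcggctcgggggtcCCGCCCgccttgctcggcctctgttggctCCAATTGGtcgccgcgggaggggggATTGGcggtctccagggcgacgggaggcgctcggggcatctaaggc
*Foxr2*, chrX:153118538-153118785, plus strand: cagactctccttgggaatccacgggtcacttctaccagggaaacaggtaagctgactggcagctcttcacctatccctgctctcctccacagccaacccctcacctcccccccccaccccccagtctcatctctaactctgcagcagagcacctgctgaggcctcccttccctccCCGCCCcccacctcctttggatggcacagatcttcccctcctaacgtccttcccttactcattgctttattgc
*Liph*, chr16:21995664-21995792, minus strand: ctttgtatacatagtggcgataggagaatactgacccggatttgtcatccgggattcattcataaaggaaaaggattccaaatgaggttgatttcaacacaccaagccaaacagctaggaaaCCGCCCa
*Allc*, chr12:28582529-28582778, minus strand: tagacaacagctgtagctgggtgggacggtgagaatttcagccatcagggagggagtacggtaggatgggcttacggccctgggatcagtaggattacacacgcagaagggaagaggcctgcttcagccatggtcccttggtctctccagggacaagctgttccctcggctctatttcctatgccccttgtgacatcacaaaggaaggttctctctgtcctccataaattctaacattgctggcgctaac

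The 4 sequences differed in composition. In the 250 bases before the start, *Igsf9* held 28 CG dinucleotides, 0.951 times the number that its C and G content gives, while *Liph* held 6 (0.525 times), *Allc* 6 (0.340 times) and *Foxr2* 3 (0.181 times). The median over 32851 RefSeq promoters was 6 CG dinucleotides and a ratio of 0.374, so *Igsf9* had the CG-rich type of promoter and *Foxr2* a CG-poor one. *Igsf9* held 3 matches to CCAAT, 2 of which overlap each other in CCAATTGG, where 33.8% of all promoters hold at least 1. It also held 1 match to CACGTG, the E-box read by MYC and related factors, found in 6.02% of all promoters. *Liph* held 1 CCAAT outside the stretch shown. *Igsf9*, *Foxr2* and *Liph* each held 1 match to GGGCGG, found in 32.7% of all promoters, and none of the 4 held TATAAA, found in 12.4%. The *Igsf9* stretch lies within an intron of a longer *Igsf9* isoform. A match is a description of these letters and not a binding site.

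Reads were counted per gene for *Tsix*-stop cells, with 51091152 to 68796179 counts a library. Levels are given as CPM, counts scaled to library size with TMM factors, and, for comparison between genes, as TPM, which also divide by transcript length. The deposited E8 values were TPM only, so the depth of those libraries is unknown. *Kdm6a* itself had 139 and 207 CPM in the wt, 128.8 and 48.0 CPM in the KO and 127 CPM in the CRISPR control libraries at D0. KO replicate 1 thus lay at the level of the CRISPR control, and since the counts cover the whole gene and not the deleted exons alone, these levels do not check the deletion. In E8, *Kdm6a* was at 46.7 to 47.8 TPM in wt and at most 0.0319 TPM in KO libraries. Pluripotency markers were high in all *Tsix*-stop libraries at D0, with summed levels of 6 genes between 5548 and 6462 CPM.

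*Liph* was the most abundant of the 5 genes in wt ES cells, at 40.7 ± 4.91 TPM (SD, n = 2). *Allc* followed at 13.3 ± 2.93 TPM, *Gm13889* at 4.93 ± 0.570 TPM, *Igsf9* at 3.48 ± 0.940 TPM and *Foxr2* at 2.99 ± 0.654 TPM. The last 2 did not differ beyond their spread. In KO ES cells the order was another, with *Gm13889* first at 85.0 ± 9.41 TPM, *Liph* at 2.75 ± 0.0568 TPM, *Igsf9* at 1.09 ± 0.222 TPM, *Allc* at 0.579 ± 0.257 TPM and *Foxr2* at 0.266 ± 0.201 TPM.

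*Liph* at D0 had 3850 and 2730 counts in the wt libraries (59.3 and 47.2 CPM), 200 and 215 in KO (3.30 and 3.32 CPM) and 304 in the CRISPR control (4.73 CPM). Both KO libraries and the control were thus far below wt, and the control lay close above KO. The mean was 16.1-fold lower in KO than in wt and 11.3-fold lower in the control. *Allc* had 457 and 281 counts in wt (7.04 and 4.85 CPM), 10 and 20 in KO (0.165 and 0.309 CPM) and 86 in the control (1.34 CPM). The control lay between the groups, 4.45-fold below wt, where the KO mean was 25.1-fold below it.

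*Igsf9* at D0 had 369 and 457 counts in wt (5.69 and 7.89 CPM), 104 and 145 in KO (1.71 and 2.24 CPM) and 128 in the control (1.99 CPM). The control lay inside the range of the KO libraries, and the KO mean was 3.44-fold below wt. *Foxr2* had 161 and 185 counts in wt (2.48 and 3.20 CPM), 22 and 7 in KO (0.363 and 0.108 CPM) and 24 in the control (0.373 CPM). The control again lay next to KO, with means 12.1-fold lower in KO and 7.6-fold lower in the control than in wt. *Foxr2* is the one gene of the 5 that did not reach 2.5 CPM in 2 libraries and so was not part of the tests on *Tsix*-stop gene counts.

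*Gm13889* went the other way at D0. It had 147 and 105 counts in wt (2.27 and 1.81 CPM), 1830 and 2235 in KO (30.2 and 34.5 CPM) and 716 in the control (11.1 CPM). The KO mean was 15.8-fold and the control 5.46-fold above wt. In all 5 genes the control was thus on the side of KO, a position that was part of how the genes were chosen. Of 13121 genes tested in *Tsix*-stop cells 8.12% differed at D0 by at least 2-fold at a false discovery rate (FDR) of at most 0.1. Fibroblast markers (7 genes, summed) were at 24.2 and 24.8 CPM in wt against 6.03 and 6.59 CPM in KO, with 7.29 CPM in the control at D0, with 4 or 5 of the 7 under 1 CPM in every library. Wt was thus highest, with the control just above KO. Markers of primitive and visceral endoderm (7 genes) summed to 6.04 and 5.80 CPM in wt, 6.92 and 4.10 CPM in KO and 5.34 CPM in the control. Trophoblast markers (6 genes) summed to 83.4 and 89.4 CPM in wt, 127 and 81.2 CPM in KO and 106 CPM in the control. In both of these lists wt and KO overlapped. The part of these cell types in the D0 differences of the 5 genes was not tested.

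**Figure D1:**
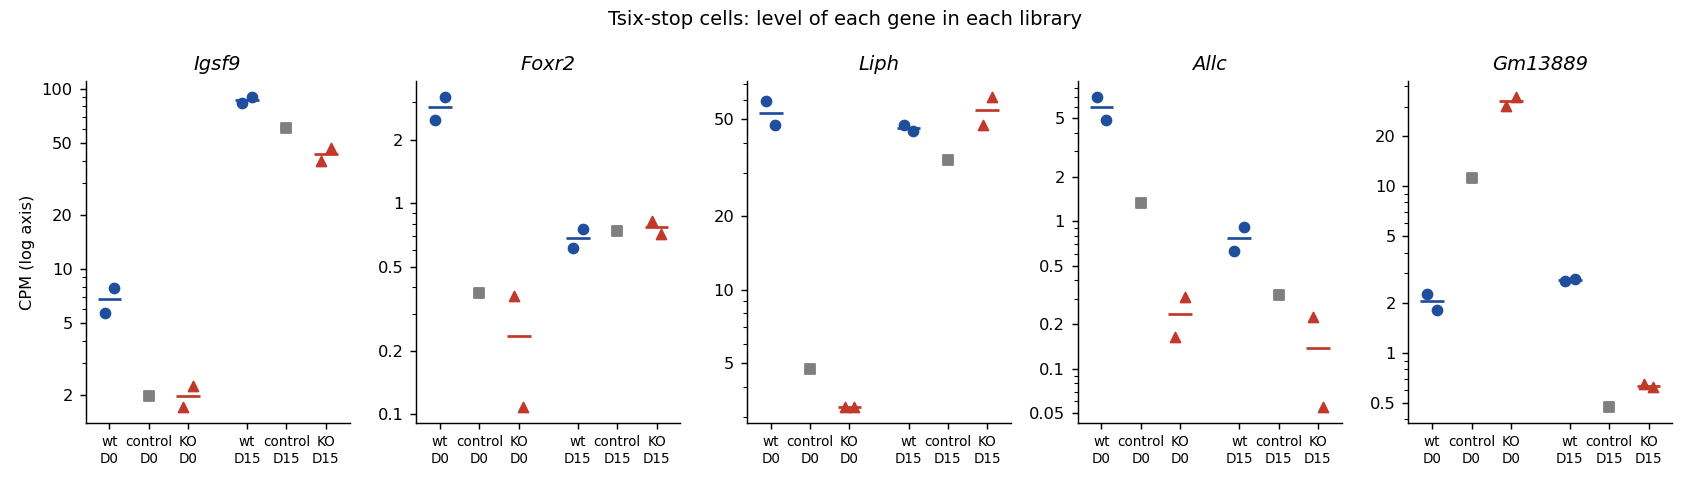
Level of each of the 5 genes in each *Tsix*-stop library, in CPM on a log axis that differs between panels, for wt (blue circles, 2 libraries), CRISPR control (grey squares, 1 library) and KO (red triangles, 2 libraries) at D0 and D15, with bars at the group means. At D0 the control sits on the KO side of wt in every panel, which the choice of the genes made likely. *Gm13889* turns from 15.8-fold above wt in KO at D0 to 4.31-fold below wt at D15.

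By D15 the gaps between the groups were others. *Liph* was at 47.2 and 44.7 CPM in wt (2991 and 2439 counts), 47.6 and 62.0 CPM in KO (2769 and 3388 counts) and 33.9 CPM in the control (1935 counts) at D15. The KO libraries were thus no longer below wt, and the control was the lowest. The KO to wt difference was 0.25 on the log2 scale (SE 0.16, FDR 0.25 by edgeR's quasi-likelihood test with Benjamini-Hochberg adjustment), which did not pass. From D0 to D15 the mean was 16.6-fold higher in KO and 7.17-fold higher in the control, while in wt it was 1.16-fold lower, with overlapping libraries.

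*Igsf9* was higher at D15 than at D0 in every group, 12.8-fold in wt, 21.9-fold in KO and 30.5-fold in the control. It reached 83.9 and 90.5 CPM in wt (5317 and 4946 counts), 39.9 and 46.8 CPM in KO (2324 and 2558 counts) and 60.6 CPM in the control (3461 counts). Both KO libraries were below the control, which was below wt. *Igsf9* fell by 1.01 on the log2 scale in KO at D15 (SE 0.18, FDR 0.0044 by edgeR). That is a 2.01-fold change, just past the 2-fold limit, and the call was lost in 11 of 16 alternatives, in 10 of them with an FDR of at most 0.0458 and a change under 2-fold.

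*Gm13889* had 172 and 152 counts in wt (2.71 and 2.78 CPM), 38 and 34 in KO (0.653 and 0.622 CPM) and 27 in the control (0.473 CPM) at D15. KO and control were both below wt, where at D0 both had been above it. *Gm13889* fell by 2.1 on the log2 scale in KO (SE 0.22, FDR 4.6e-04 by edgeR). Between the days its mean was 50.7-fold lower in KO and 23.5-fold lower in the control, and 1.35-fold higher in wt.

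*Allc* had 40 and 50 counts in wt (0.631 and 0.915 CPM), 13 and 3 in KO (0.223 and 0.0549 CPM) and 18 in the control (0.315 CPM) at D15. All groups were below 1 CPM, and the KO libraries lay under the control and wt. *Allc* fell by 2.43 on the log2 scale in KO (SE 0.59, FDR 0.014 by edgeR), and it was in the test only through its D0 levels in wt. *Foxr2* had 39 and 41 counts in wt (0.615 and 0.751 CPM), 48 and 39 in KO (0.825 and 0.713 CPM) and 42 in the control (0.736 CPM). The groups overlapped, and without the filter on low counts the difference was 0.24 on the log2 scale (FDR 0.73 by edgeR). In wt cells *Foxr2* was 4.16-fold lower at D15 than at D0, while in KO it was 3.27-fold higher.

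At D15 14.9% of 13121 genes were called, 11.1% lower in KO. *Igsf9*, *Gm13889* and *Allc* were among these, 3 of the 4 genes tested. *Allc* was tested only because of the D0 levels that chose it. *Gm13889* passed the filter only through KO at D0 and wt at D15, the groups where it was high on each day. This count is therefore not set against the share of all genes. With the control libraries counted as wt, none of the 3 was called (FDR 0.14 to 0.26 by edgeR). The share of all genes called in that fit was not counted, so the loss is not read as particular to these genes. Some of the cell type marker lists moved with the groups at D15. The summed fibroblast markers were at 5705 and 6184 CPM in wt against 418 and 553 CPM in KO, with 211 CPM in the control, and 7 markers of primitive and visceral endoderm were at 432 and 502 CPM, 25.5 and 41.2 CPM, and 29.4 CPM. Pluripotency markers were at 2533 and 2880 CPM in wt against 3778 and 4889 CPM in KO, with 2742 CPM in the control. The first 2 marker lists thus put the control with KO, and the part of these cell types in the changes of *Igsf9*, *Allc* and *Gm13889* was not tested. In bulk libraries, fewer cells of a type and less RNA per cell cannot be told apart.

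E8 cells answered which of these differences appeared in another line with another *Kdm6a* deletion. Fold changes in E8 are on the log2(TPM + 1) scale, which understates the change of low genes, and the median over all 12452 genes tested was 0.10 at D7 and 0.09 at D15. At D7, *Foxr2*, *Liph* and *Gm13889* were called of the 4 genes tested, each in the direction it had at D0 in *Tsix*-stop cells, where 17.5% of genes were called. At D15, *Foxr2* and *Gm13889* were called, where 10.7% were. *Foxr2* passed the filter of 2.5 TPM in 2 libraries only through its wt libraries and *Gm13889* only through its KO libraries. Both thus had to differ to be tested, and the counts of called genes are not read against these shares. The calls of both genes were the same without the filter.

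*Liph* in E8 was at 28.2 and 27.6 TPM in wt and 6.72 and 6.51 TPM in KO at D7. The groups were far apart, and *Liph* fell by 1.92 on the log2 scale (SE 0.05, FDR 6.0e-08 by limma). On D15 the level was 19.1 and 21.2 TPM in wt and 20.2 and 19.6 TPM in KO, where the groups overlapped (−0.02, SE 0.05, FDR 0.81 by limma). In KO cells *Liph* rose by 1.46 on the log2 scale between the days (SE 0.05, FDR 1.0e-06 by limma), where 6.11% of genes were called. The KO effect differed between the days by 1.91 on the log2 scale (SE 0.08, FDR 2.7e-06 by limma).

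*Foxr2* in E8 was at 3.86 and 3.96 TPM in wt and 0.359 and 0.537 TPM in KO at D7. It was at 4.41 and 4.24 TPM in wt and 1.09 and 1.12 TPM in KO at D15. Wt was above KO on both days. *Foxr2* fell by 1.76 at D7 (SE 0.08, FDR 5.6e-07) and by 1.34 at D15 (SE 0.08, FDR 4.0e-06) on the log2 scale by limma. With a pseudocount of 0.1 the D7 value was −2.89. The wt level was not lower at D15 than at D7, with means of 3.91 ± 0.0748 TPM at D7 and 4.33 ± 0.121 TPM at D15 (SD over 2 libraries each). The lower D15 level in *Tsix*-stop wt cells was against D0, a day without E8 libraries.

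*Gm13889* in E8 was at 0.493 and 0.363 TPM in wt and 3.35 and 2.68 TPM in KO at D7. On D15 it had 0.414 and 0.669 TPM in wt and 2.63 and 2.86 TPM in KO. KO was above wt on both days. *Gm13889* rose by 1.49 at D7 (SE 0.12, FDR 1.3e-05) and by 1.28 at D15 (SE 0.12, FDR 4.3e-05) on the log2 scale by limma. With a pseudocount of 0.1 these were 2.56 and 2.18, and with quantile normalization the D15 value was 0.74, under 2-fold.

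*Igsf9* in E8 was at 22.6 and 20.1 TPM in wt and 16.5 and 17.4 TPM in KO at D7. On D15 it had 15.1 and 17.1 TPM in wt and 28.3 and 28.7 TPM in KO. KO was thus below wt at D7 and above it at D15. The differences were −0.31 at D7 (SE 0.07, FDR 0.0045) and 0.79 at D15 (SE 0.07, FDR 3.8e-05) on the log2 scale by limma, both under 2-fold. The KO effect itself differed between the days by 1.10 (SE 0.10, FDR 9.9e-05 by limma). For this difference between days, 2 of the 4 genes, *Igsf9* and *Liph*, were called, where 7.25% of genes were.

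*Allc* was too low in E8 to pass the filter. It was at 0.295 and 0.524 TPM in wt and listed at 0 in both KO libraries at D7. On D15 it had 0.134 and 0.174 TPM in wt and 0.0268 and 0.0701 TPM in KO. KO was below wt on both days, at levels under 1 TPM.

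Cell type markers in E8 also moved with genotype. The 6 pluripotency markers summed to 12575 and 12691 TPM in wt and 4350 and 4221 TPM in KO at D7, and to 16247 and 16999 TPM in wt and 7601 and 7384 TPM in KO at D15, so that these markers stayed high in wt after the labelled days of differentiation. The endoderm markers summed to 19.7 and 18.2 TPM in wt and 1183 and 1186 TPM in KO at D7, and to 15.4 and 15.9 TPM in wt and 264 TPM in each KO library at D15. The fibroblast markers summed to 33.6 and 33.5 TPM in wt and 39.3 and 40.4 TPM in KO at D7, and to 21.6 and 22.9 TPM in wt and 47.1 and 48.8 TPM in KO at D15. Of these 7 genes, 6 were under 1 TPM in every wt library and 2 in every KO library. The trophoblast markers summed to 82.0 and 83.5 TPM in wt and 104.6 and 109 TPM in KO at D7, and to 53.8 and 60.3 TPM in wt and 209 and 210.3 TPM in KO at D15. KO libraries thus had less pluripotency marker RNA and more RNA of the other 3 lists on both days. *Foxr2* was lower and *Gm13889* higher in these libraries on both days, while *Liph* was lower in them at D7 and level with wt at D15. The part of these cells in the changes was not tested.

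**Figure D2:**
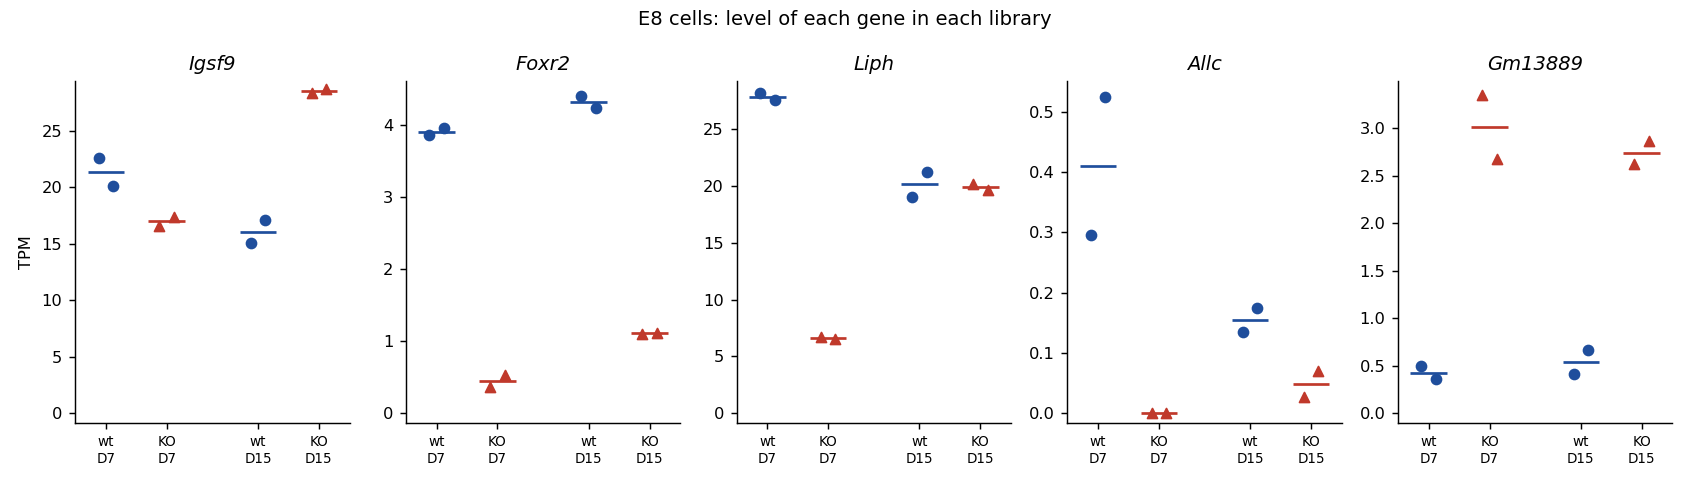
Level of each of the 5 genes in each E8 library, in TPM on linear axes that differ between panels, for wt (blue circles) and KO (red triangles) at D7 and D15, with 2 libraries a group and bars at the group means. *Liph* is low in KO at D7 and at the wt level at D15, *Foxr2* is below and *Gm13889* above wt on both days, and *Igsf9* crosses from below to above wt.

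**Figure D3:**
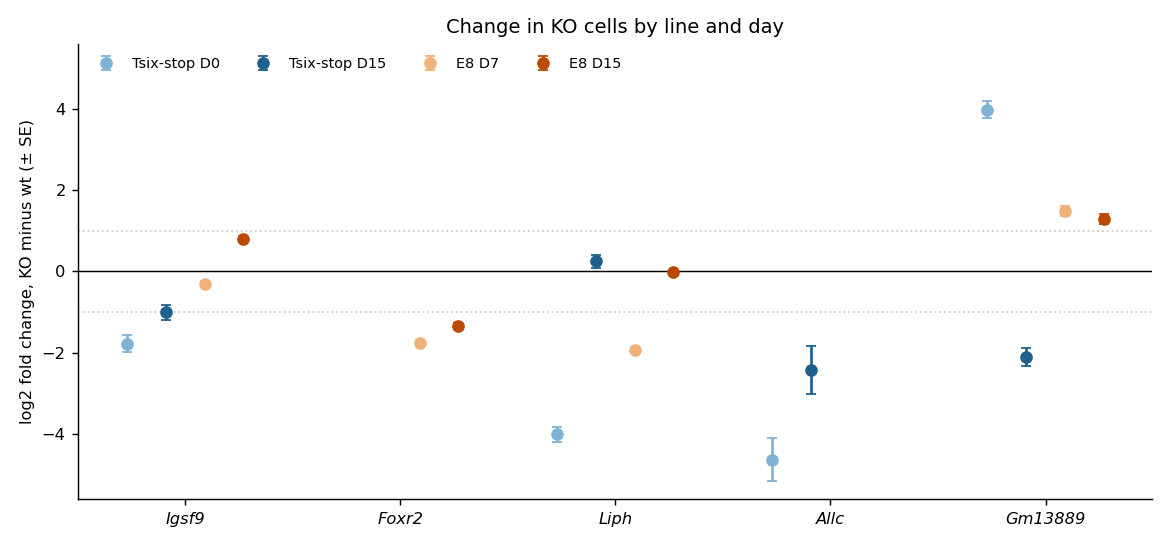
Difference between KO and wt on the log2 scale for each gene in *Tsix*-stop cells (edgeR, blue) and E8 cells (limma on log2(TPM + 1), orange), with bars of 1 SE and dotted lines at 2-fold. *Foxr2* in *Tsix*-stop cells and *Allc* in E8 cells were not tested and have no point, and *Gm13889* at *Tsix*-stop D15 (−2.1) lies opposite to its other 3 values (3.98, 1.49 and 1.28).

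Reads over SNPs told the alleles apart in *Tsix*-stop cells. Shares of strain-129 reads are given with 95% Wilson intervals, which cover counting error only. *Liph* was read from both alleles in similar shares in wt and KO. At D0 the strain-129 share was 51.8% (48.7 to 55.0) and 43.9% (40.0 to 47.8) in wt against 52.0% (38.5 to 65.2) and 44.9% (31.9 to 58.7) in KO, with 50.7% (39.6 to 61.7) in the control. The D15 shares were 41.7% and 34.4% in wt against 33.5% and 42.4% in KO, with 41.7% in the control. The low *Liph* level of KO ES cells was thus seen on both alleles, with 22 to 27 reads of each allele per KO library against 275 to 496 per wt library.

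*Igsf9* was read more from strain-129 than from *cast* in every library. At D0 the strain-129 share was 74.2% (64.7 to 81.9) and 57.6% (48.6 to 66.2) in wt against 79.2% (59.5 to 90.8) and 85.3% (69.9 to 93.6) in KO, with 75.0% (57.9 to 86.7) in the control, where the intervals of the groups overlapped in part. At D15 the strain-129 share was 64.3% (61.7 to 66.9) and 62.2% (59.5 to 64.9) in wt against 55.0% (51.0 to 59.0) and 52.5% (48.8 to 56.2) in KO, with 59.0% (55.7 to 62.2) in the control. The KO shares were below the wt shares with no overlap of intervals. *Igsf9* fell by 1.20 on the log2 scale in strain-129 reads (SE 0.16, FDR 7.2e-04 by edgeR), and in *cast* reads the difference was −0.49 (SE 0.25, FDR 0.16 by edgeR). Whether the alleles differed in this change was not tested.

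*Gm13889* at D15 fell in both alleles, with log2 changes of −1.82 in strain-129 reads (SE 0.42, FDR 0.010) and −1.75 in *cast* reads (SE 0.54, FDR 0.030) by edgeR. In the D0 KO libraries, where it was highest, its strain-129 share was 72.9% (68.3 to 77.1) and 63.8% (59.4 to 67.9). In the wt libraries of that day it was 52.0% (33.5 to 70.0) and 55.6% (37.3 to 72.4), on 25 and 27 reads. Of the 4 genes tested in strain-129 reads 2 were called, where 16.1% of genes were. Of the 5 tested in *cast* reads 1 was, where 17.4% were. *Foxr2* in strain-129 reads and *Allc* in *cast* reads passed the filter only through wt at D0, the levels that chose them. These counts are therefore not read against the shares of all genes. The *cast* call of *Gm13889* was lost without wt D15 replicate 1 or without KO D15 replicate 1.

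*Allc* had no strain-129 read at D0 in wt, with 17 and 14 *cast* reads, which allows a strain-129 share of up to 9.68% over both libraries (3 counts of 31 reads), or 11.03% by the Wilson interval. It had 1 SNP read in each of the control and KO replicate 2 libraries and none in KO replicate 1, so the alleles could not be compared between the groups. The region around it differed between the groups. Over 36 tested genes within 5 Mb of *Allc*, the strain-129 share at D0 was 33.9% and 32.6% in wt, 33.9% in the control, and 52.5% and 48.8% in KO. Over the 466 tested genes of chromosome 12 it was 37.7% and 37.5% in wt, 39.6% in the control, and 58.4% and 54.0% in KO. The median KO to wt difference of the 36 genes was −0.32 on the log2 scale at D0, against −0.01 over all genes tested. KO cells thus had a larger share of strain-129 reads along this chromosome than wt, and the control lay near wt. Over all genes the D0 share was 51.1% and 51.0% in wt, 51.4% in the control, and 52.4% and 52.5% in KO. On chromosome 12 the wt and control shares thus lay further from their shares over all genes than the KO shares did. The part of this in the low *Allc* level was not tested.

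*Foxr2* lies on the X chromosome and had few SNP reads. At D15, strain-129 reads were 1 of 8 and 3 of 13 in wt, 6 of 10 in each KO library, and 2 of 5 in the control. The difference was 1.52 on the log2 scale in strain-129 reads (SE 0.80, FDR 0.19 by edgeR) and −0.94 in *cast* reads (SE 0.78, FDR 0.39 by edgeR), neither of which passed. Over the X chromosome the strain-129 share at D15 was 33.9% and 34.2% in wt against 47.4% and 43.4% in KO, with 36.6% in the control. At D0 the 40 tested genes within 5 Mb of *Foxr2* had a strain-129 share of 38.0% and 39.2% in wt against 49.3% and 49.3% in KO, with 50.5% in the control. The region of *Foxr2* thus put the control with KO at D0, and its part in the low *Foxr2* level of both was not tested. The median KO to wt difference of these 40 genes was 0.35 on the log2 scale at D0, opposite in sign to that of *Foxr2*. Around *Igsf9*, *Liph* and *Gm13889* the share within 5 Mb differed by at most 2.92 percentage points between any 2 libraries of a day.

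**Figure D4:**
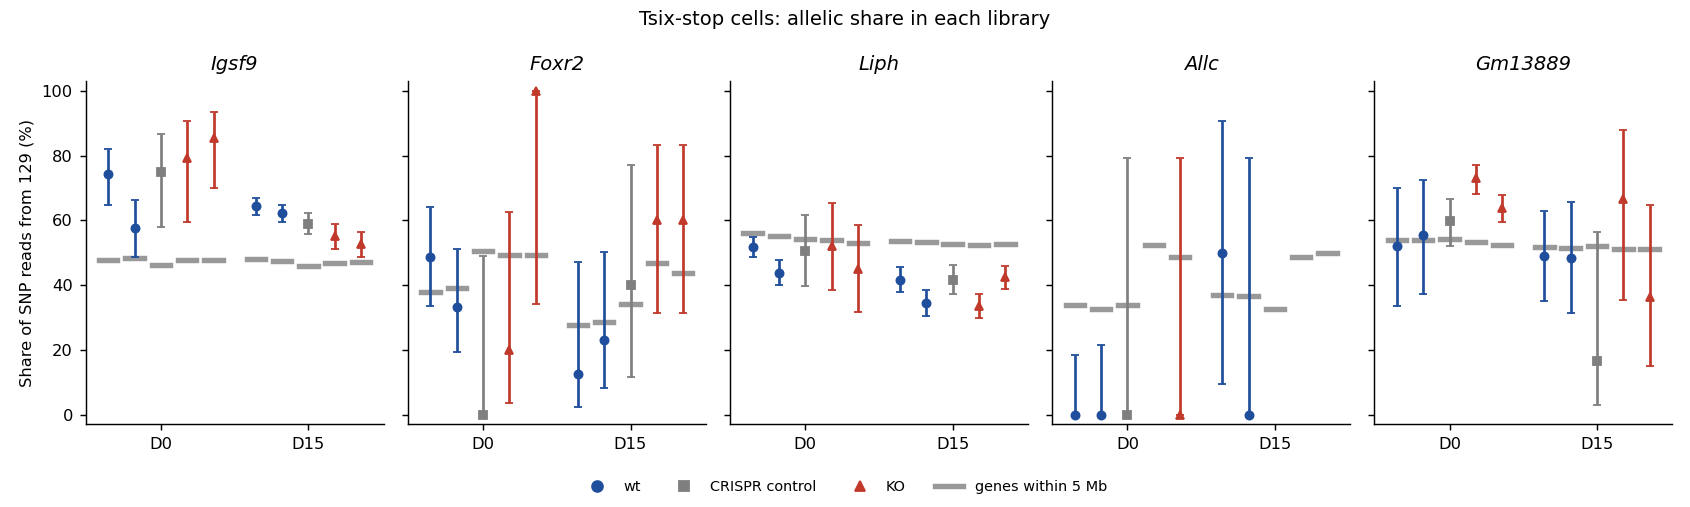
Share of SNP reads from the strain-129 allele in each *Tsix*-stop library, in percent with 95% Wilson intervals, for wt (blue), CRISPR control (grey) and KO (red) at D0 and D15. Grey bars give the share over all tested genes within 5 Mb, which is higher in KO than in wt around *Allc* and *Foxr2* and nearly level around the other genes.

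Of 43 tested genes within 500 kb of a member, 3 were called at D0, which is 6.98% against the 8.12% of all genes, and 9 at D15, which is 20.9% against 14.9%. Neighbours share a region and are not independent of each other. The 3 at D0 were lower in KO. Among them *Atp1a4* (−2.82, SE 0.50, FDR 0.0099 by edgeR), a subunit of the sodium pump, lies 223 kb before *Igsf9*. *Cd82* (−1.14, SE 0.36, FDR 0.073 by edgeR) lies 493 kb from *Gm13889*, on the side of its end. Both overlap a predicted gene on the other strand, and since the library kit does not mark strand these values are uncertain.

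*Igsf9* had *Tagln2*, an actin-binding protein, 1.17 kb after its end. *Tagln2* differed by −0.61 at D0 (FDR 0.014 by edgeR) and −0.54 at D15 (FDR 0.0097 by edgeR), under 2-fold on both days, and *Pigm*, 97.7 kb on the other side, by 0.10 and 0.01. *Liph* lay between *Tmem41a*, 6.27 kb away (−0.78 at D0, FDR 0.019 by edgeR, under 2-fold), and *Senp2*, 13.8 kb away (−0.03 at D0). *Foxr2* had *Rragb*, a regulator of mTORC1, 7.12 kb after its end, which rose by 1.98 at D15 (SE 0.19, FDR 3.2e-04 by edgeR) and differed by 0.60 at D0, while *Mageh1*, 81.2 kb on the other side, differed by 0.27 and −0.58.

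*Gm13889* had *Alkbh3* 23.3 kb away (0.26 at D0, −0.14 at D15) and *Accsl* 86.7 kb away, which rose by 1.73 at D15 (SE 0.22, FDR 0.0010 by edgeR). *Alx4*, a homeobox gene of limb and skull mesenchyme 274 kb away, fell by 3.86 at D15 (SE 0.64, FDR 0.0030 by edgeR), as did *Cd82* (−1.80). *Alx4* overlaps *Ext2* on the other strand, so its reads cannot be told apart from those of *Ext2* in the shared bases. Near *Allc*, tested genes lay on one side only, the nearest being *Rps7* at 48.3 kb (−0.33 at D0). The values of its 5 tested neighbours lay between −0.55 and −0.29 at D0 and between −0.32 and 0.11 at D15. None was called on either day, and the lowest D0 value passed the FDR (0.069 by edgeR) but was under 2-fold. The other neighbours called at D15 were *Kcnj9* (1.97) and *Pea15a* (−1.04) by *Igsf9*, *Gpr143* (1.26) by *Foxr2*, and *2510009E07Rik* (−1.39) and *Tra2b* (1.01) by *Liph*. *Pea15a* overlaps the end of *Dcaf8*, and *Kcnj9* a predicted gene, on the other strand. In E8 cells *Rragb* (−1.53 at D7 and −0.76 at D15), *Gpr143* (−2.05 and −1.49) and *Pea15a* (1.47 and 1.72) lay opposite in sign to *Tsix*-stop D15. *Accsl* (−0.63 and −0.45), *Tra2b* (−0.22 and −0.03) and *Cd82* (0.06 and 0.16) did so too, each under 2-fold. *Kcnj9*, *Alx4* and *2510009E07Rik* were not tested in E8.

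**Figure D5:**
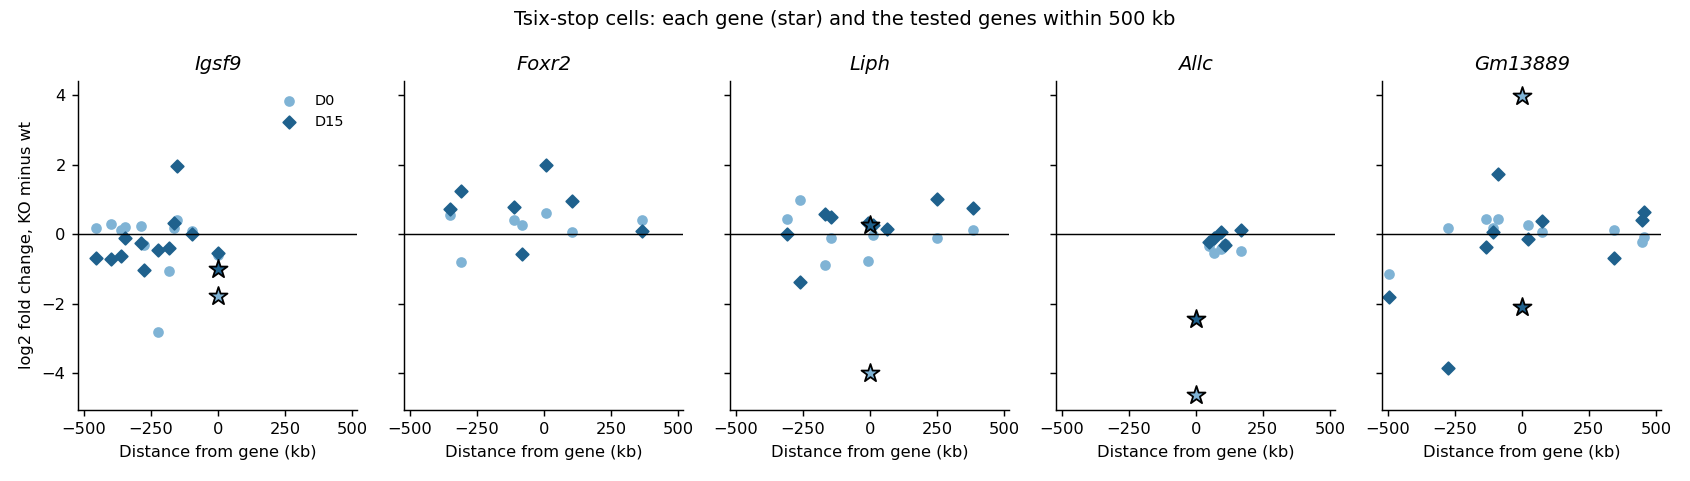
Difference between KO and wt in *Tsix*-stop cells on the log2 scale for the tested genes within 500 kb of each gene, against their distance in kb (negative towards the start of the chromosome), at D0 (light circles) and D15 (dark diamonds), with the gene itself as a star at distance 0. At D0 the stars of *Liph*, *Allc* and *Gm13889* (−4.01, −4.63 and 3.98) lie beyond all neighbours, which the choice of these genes by D0 levels made likely, and *Foxr2* has no star because it was not tested.

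The genes whose pattern over the 10 *Tsix*-stop libraries was most like each gene were found by Pearson's r on log2(CPM + 1), as a description over libraries that share days and genotypes. For *Liph* they were *Cpne9* (r = 0.976) and *Psd4* (r = 0.974), a calcium-dependent membrane-binding protein and an ARF6 exchange factor. *Psd4* was at a mean of 12 CPM in wt against 0.926 in KO, with 0.700 in the control at D0, and at 16.9, 11.7 and 10.4 CPM at D15. *Cpne9* and *Psd4* also fell in E8 KO cells at D7, by 1.56 (FDR 1.8e-06) and 1.92 (FDR 4.1e-07) on the log2 scale by limma, and at D15 by 1.27 (FDR 8.8e-06) and 1.36 (FDR 4.0e-06), where *Liph* did not.

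For *Gm13889* they were *Tll1* (r = 0.975), an astacin protease at 1.43 CPM in wt against 6.55 in KO, with 4.29 in the control at D0, and *Ets2* (r = 0.972). For *Igsf9* they were *Nub1* (r = 0.996) and its neighbour *Tagln2* (r = 0.996), whose values mainly follow the day. For *Foxr2* they included *Upk1a* (r = 0.945), and for *Allc* they were *Eci3* (r = 0.954) and *Nfkbid* (r = 0.95). *Upk1a*, a uroplakin, was at 15.1 CPM in wt against 4.29 in KO, with 4.15 in the control at D0, and at 5.90, 7.58 and 6.74 CPM at D15. Its low D0 level in KO and control, like that of *Foxr2*, was made likely by its choice on correlation over these libraries.

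Of 9 tested immunoglobulin-superfamily genes, 1 was called at D0 (*Igsf1*, −1.53) and 3 at D15, all lower in KO, with medians of −0.30 and −0.31 against −0.01 and −0.00 over all genes. The 3 were *Sdk2* (−2.26, FDR 6.2e-04 by edgeR) and *Sdk1* (−1.62, FDR 0.049), which are synaptic adhesion proteins of the retina, and *Igsf11* (−1.15, FDR 0.021). Of 6 tested in E8, 3 were lower (*Igsf1*, *Igsf21* and *Igsf8*) and 1 higher (*Igsf11*, 3.59) at D7, and 2 lower (*Igsf1* and *Igsf21*) and 1 higher (*Igsf11*, 1.79) at D15.

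*Foxr1*, the autosomal relative of *Foxr2*, was at 2.80 CPM in wt against 0.997 in KO, with 1.21 in the control at D0, and fell by 1.49 in KO (SE 0.25, FDR 0.0081 by edgeR). It differed by 0.05 at D15 (FDR 0.88 by edgeR). In E8 it fell by 1.30 at D7 (FDR 1.2e-06 by limma) and differed by −0.77 at D15 (FDR 3.3e-05 by limma), under 2-fold. The other 13 genes of this list belong to the MYC network. At D0 *Mxd4* (1.18) and *Myc* (1.12) rose and at D15 *Mycn* (1.28) rose, where the medians of all 14 genes were 0.04 and 0.07. In E8, *Mxd4* (1.71) rose and *Mlxipl* (−1.87) fell at D7, and *Mxd4* (1.09) and *Myc* (1.46) rose at D15.

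Of 13 tested genes of lysophosphatidic acid supply and signalling, 1 was called at D0. This was *Pla1a*, like *Liph* a phospholipase A1, at 44.3 CPM in wt against 15.8 in KO, with 17.8 in the control, which fell by 1.48 (SE 0.28, FDR 0.013 by edgeR). *Pla1a* also fell in E8, by 2.15 at D7 (FDR 8.1e-08) and 1.49 at D15 (FDR 8.2e-07) by limma. At D15 in *Tsix*-stop cells the receptor genes *Lpar4* (1.41) and *Lpar1* (−1.18) were called in opposite directions, as were *Enpp2* (1.07), the autotaxin that makes the same lipid outside cells, and *Lpar6* (−1.05). The medians of the list were 0.03 and −0.04. In E8, *Lpar3* (3.09), *Lpar6* (2.66) and *Agpat4* (1.42) rose at D7, and *Lpar6* (2.47) and *Lpar3* (1.38) rose at D15.

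The 10 tested genes of purine breakdown and salvage lay between −0.58 and 1.05 at D0, where the median was −0.33 and none was called. Some, such as *Pnp* (−0.58, FDR 0.026 by edgeR), passed the FDR at D0 but were under 2-fold. At D15 3 were called, where the median was 0.29. *Pnp2* (1.89) and *Pnp* (1.43), near-identical copies whose reads may be split by the counting, rose, and *Nt5e* (−1.78), the ecto-nucleotidase CD73, fell. In E8, *Nt5e* (1.5) rose and *Hprt* (−1.30) and *Ampd3* (−1.30) fell at D7, and *Nt5e* (1.85) rose and *Hprt* (−1.03) fell at D15. *Igsf11*, *Myc*, *Enpp2*, *Lpar6* and the genes named for E8 alone were named after their values were seen. The counts in these lists lie on small numbers of genes and are descriptions beside the shares of all genes called, 8.12% and 14.9% in *Tsix*-stop cells and 17.5% and 10.7% in E8 cells.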

How the data were processed

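RNA was sequenced as single-end reads (TruSeq V2 kit, which does not mark strand). The authors aligned reads to mm10 (per the labels, with Bowtie2 2.4.5 and TopHat2 2.1.1) and deposited, for *Tsix*-stop cells, estimated counts per gene on the strain-129 genome and counts of reads over SNPs of each allele, and, for E8 cells, TPM only. Of the deposited estimated counts 7.099% were not whole, and they were rounded.

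The 5 genes, the gene lists and the marker lists were chosen with earlier results of these data known. Genes with at least 2.5 CPM (TPM for E8) in at least 2 of the 8 wt and KO libraries of a line were tested. *Tsix*-stop counts were fitted with edgeR 4.0.16 (quasi-likelihood, TMM, all wt and KO libraries, 1 group for each genotype and day), and E8 log2(TPM + 1) with limma 3.58.1 (trend), in R 4.3.3. Calls required a change of at least 2-fold and a Benjamini-Hochberg FDR, over all genes tested, of no more than 0.1. SNP reads were fitted in the same way for genes with at least 10 reads in 2 libraries. TPM of *Tsix*-stop genes were computed from counts and GENCODE vM21 lengths. Of 24346 symbols 23310 matched GENCODE and 674 matched by synonym. In the E8 files, 537 repeated symbols were summed. The deposited allele TPM of E8 were not used, since each column is rescaled to the same total. Named beside the 5 genes were the 2 genes most correlated with each, the nearest tested gene on each side, called genes within 500 kb, and up to 3 called genes of each list. Of the genes this rule names, 2 are not reported here. DESeq2 1.42.0, other filters, scalings and left-out libraries were the alternatives, and the fits were tested on simulated data.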

Additional observations from a re-analysis of the deposited data

Results flagged for a closer look

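The effect of KO differed between D7 and D15 in E8 cells for 2 genes by a test of that difference. For *Igsf9* the difference was 1.10 on the log2(TPM + 1) scale, from below wt to above it, and for *Liph* it was 1.91, from far below wt to the wt level.

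Other effects lay in opposite directions in every library of the groups compared, and these differences were not tested. *Igsf9* at D15 was lower in KO in *Tsix*-stop cells and higher in E8 cells, 1.84 apart on the log2 scale. *Gm13889* at D15 was lower in KO in *Tsix*-stop cells and higher in E8 cells, 4.45 apart. The values of the lines come from tables made separately. Within *Tsix*-stop cells, *Gm13889* was higher in KO at D0 and lower at D15, with a change of the KO effect of −6.09, and *Liph* was lower in KO at D0 and, without passing the test, higher at D15, with a change of 4.26. Both D0 values chose these genes.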

How the results depend on the processing

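The D15 calls in *Tsix*-stop cells depended on the processing. Of the 3 genes called, 1 was called with a filter of 2.5 CPM in 4 libraries, 1 with the libraries of D15 alone and 0 when wt included the CRISPR control, and between 1 and 3 when 1 library was left out, the lowest without wt D0 replicate 1. Under the first 2 of these and without wt D0 replicate 1, *Allc* failed the filter and was not tested, and *Igsf9*, at between −0.99989 and −0.9963, lay just under 2-fold. DESeq2, RLE normalization, no filter on low counts and counts on the *cast* genome each gave 2. With the control added, the log2 changes were −0.83 for *Igsf9*, −2.12 for *Allc* and −1.63 for *Gm13889*. The D0 values were then −1.39 for *Igsf9*, −3.48 for *Liph*, −4.20 for *Allc* and 2.67 for *Gm13889*. The share of all genes called in the fit with the control was not counted. In *cast* reads the count of 1 became 0 to 1 with a library left out, 0 without wt D15 replicate 1 or KO D15 replicate 1. In E8 at D15 quantile normalization left 1 of 2. *Liph* at E8 D15 changed sign, without passing in either direction, at 0.058 without wt D15 replicate 2 and 0.0030 without KO D15 replicate 2, in a range of −0.088 to 0.058. The *Foxr2* difference between days in E8, 0.43 (FDR 0.012 by limma, under 2-fold), was −0.027 (FDR 0.85 by limma) under quantile normalization and 1.02 with a pseudocount of 0.1, alternatives chosen after seeing the data. The cause was not tested.

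The replicate numbers are shared between groups, but the correlations of deviations of same-numbered samples had no common sign, at −0.0027 and −0.135 between wt and KO in *Tsix*-stop cells at D0 and D15, 0.116 and −0.162 in E8 cells at D7 and D15, and, between D0 and D15 of *Tsix*-stop cells, 0.23 in KO and −0.209 in wt. They were read as numbers only. With the replicate block the members called were 3 in *Tsix*-stop cells at D15, 2 in strain-129 reads, 1 in *cast* reads, and 3 at D7 and 2 at D15 in E8 cells, the same counts as without it. The 2-fold limit kept smaller differences that passed the FDR, such as *Igsf9* in E8 cells, out of the calls. The control has 1 library a day, and *Foxr2* and *Allc* had too few SNP reads for a comparison of alleles.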
